A study of Glycine max with 20 samples.

Results

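GLYMA11G02980 and GLYMA01G42390 are the pair of soybean stay-green genes examined here, taken by identifier as 2 of the 57274 genes in the count table. Their identifiers place the genes on chromosomes 11 and 1, and they are called the chromosome 11 copy and the chromosome 1 copy below. The working names D1 and D2 are not used for them. RefSeq (Glycine_max_v4.0) gives D2 as a synonym of SGR1 on chromosome 11, while the working names call the chromosome 11 copy D1. RefSeq also lists SGR2 on chromosome 1 and SGR on chromosome 2, but 0 of its 59048 genes carry an identifier of the tables, so the copies could not be matched to these entries and no sequence is shown.

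Stay-green proteins remove the magnesium from chlorophyll a, an early step of chlorophyll breakdown in leaves that senesce and in seeds that lose their green colour. In soybean, loss of both copies keeps the seed green at maturity. The copies are paralogs, so reads that match both may have been dropped or divided in counting, and their levels are uncertain to that extent.

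The seeds came from cgy-2-NIL, a near-isogenic line that carries the cgy-2 allele and lacks the α-subunit of the storage protein β-conglycinin, and from DN47 (Dongnong47), its recurrent parent. cgy-2-NIL was obtained by backcrossing to DN47 and shares its background, so the line is a donor segment in DN47 and not an edit of 1 gene. Whole seeds, cotyledon and seed coat combined, were pooled by age, counted in days after flowering (DAF). The ages were 18, 25, 35, 50 and 55 DAF. Each of the 10 groups of line and stage had 2 libraries, 20 in all, described by the study as separate biological samples. In whole seeds, fewer cells of a type and less RNA per cell cannot be told apart.

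Library totals ran from 20981632 to 30555808 counts in cgy-2-NIL and from 18492047 to 24916180 counts in DN47. The α-subunit gene GLYMA20G28660 had between 0 and 8 counts in all cgy-2-NIL libraries and between 39 and 3825 counts in the DN47 libraries from 25 to 55 DAF. It had 0 counts in all libraries of both lines at 18 DAF, so it does not check the labels of that stage. The 2 libraries of cgy-2-NIL at 50 DAF stood farthest apart of any group, with scores of 85.2 and 129.6 on the first principal component. This component held 66.4% of the variance and was computed without the stay-green pair.

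Both copies were low until 35 DAF, higher at 50 DAF and by far highest at 55 DAF, and at 55 DAF both were higher in cgy-2-NIL than in DN47. Levels are given as RPKM, reads per gene scaled by gene length and library total, which allows comparison between genes.

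In cgy-2-NIL the chromosome 11 copy had 3.33 and 3.02 RPKM (18 DAF), 3.63 and 2.98 (25 DAF), 3.67 and 3.01 (35 DAF), 9.37 and 14.6 (50 DAF), and 103 and 89.3 (55 DAF). In DN47 it had 2.31 and 2.28 RPKM (18 DAF), 2.87 and 3.15 (25 DAF), 3.33 and 3.66 (35 DAF), 10.4 and 12.2 (50 DAF), and 30.0 and 40.8 (55 DAF). The lines overlapped from 25 to 50 DAF. Both cgy-2-NIL libraries lay above both DN47 libraries at 18 and 55 DAF.

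In cgy-2-NIL the chromosome 1 copy had 4.19 and 4.63 RPKM (18 DAF), 5.68 and 5.03 (25 DAF), 5.52 and 4.47 (35 DAF), 8.29 and 18.7 (50 DAF), and 92.1 in both libraries (55 DAF). In DN47 it had 3.69 and 3.38 RPKM (18 DAF), 4.24 and 4.07 (25 DAF), 4.12 and 4.58 (35 DAF), 8.24 and 8.06 (50 DAF), and 33.3 and 43.6 (55 DAF). The lines overlapped at 35 DAF. At 50 DAF the lower cgy-2-NIL library, at 8.29 RPKM, stood just above the DN47 library at 8.24 RPKM.

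**Figure D1:**
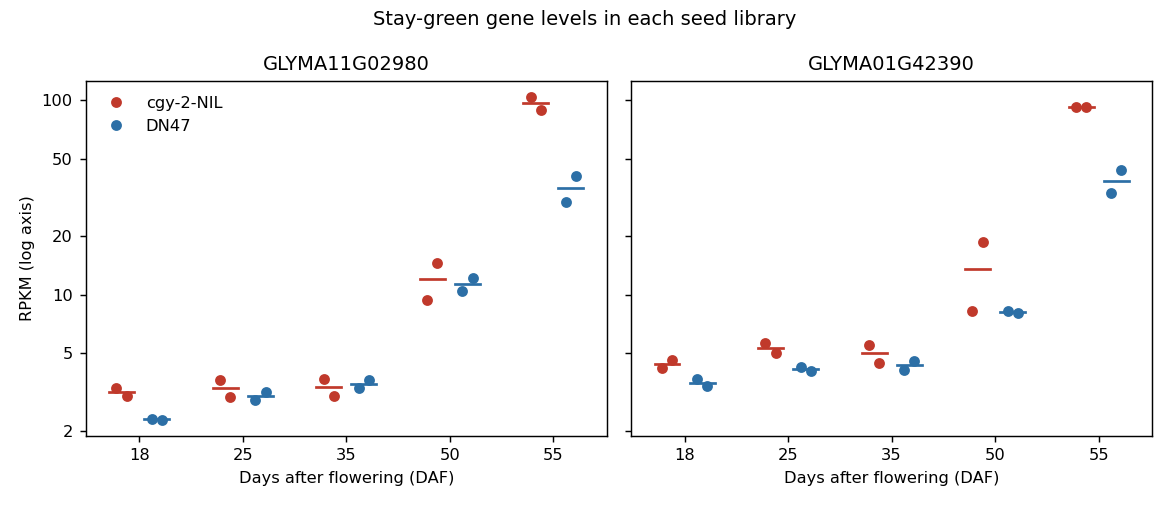
RPKM (log axis), not scaled between libraries, of the chromosome 11 copy (left) and the chromosome 1 copy (right) against days after flowering. Each point is a library, each bar the mean of 2 libraries, with cgy-2-NIL in red and DN47 in blue. Both copies stay under 6 RPKM to 35 DAF, and at 55 DAF the cgy-2-NIL libraries lie above those of DN47.

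In order of mean level, the chromosome 11 copy was lowest in DN47 at 18 DAF, at 2.29 ± 0.0180 RPKM (SD, n = 2). The next 5 groups, from DN47 at 25 DAF to DN47 at 35 DAF, formed a chain in which each overlapped its neighbour, with means between 3.01 and 3.50 RPKM. This overlap holds for RPKM, which is not scaled between libraries. In counts scaled between libraries (TMM-scaled CPM), the 35 DAF libraries of both lines had 4.97 to 6.01. Those of 25 DAF had 2.99 to 3.69. The 50 DAF groups came next and overlapped each other, at 12.002 ± 3.72 RPKM in cgy-2-NIL and 11.3 ± 1.24 RPKM in DN47. The 55 DAF groups were highest and stood apart, at 96.3 ± 9.96 RPKM in cgy-2-NIL and 35.4 ± 7.68 RPKM in DN47 (SD, n = 2 each).

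The chromosome 1 copy had a similar order, again with DN47 at 18 DAF lowest, at 3.54 ± 0.222 RPKM, and the other groups up to 35 DAF in a chain of overlapping neighbours. In TMM-scaled CPM its 35 DAF libraries, at 6.96 to 7.42, lay above those of 25 DAF, at 4.01 to 5.56. At 50 DAF it averaged 13.5 ± 7.34 RPKM in cgy-2-NIL and 8.15 ± 0.127 RPKM in DN47. At 55 DAF it averaged 92.1 ± 0.0368 RPKM in cgy-2-NIL and 38.4 ± 7.33 RPKM in DN47 (SD, n = 2 each).

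Relative to all genes in the tables, the chromosome 11 copy had a higher RPKM than 52.8% to 57.5% of genes when youngest (18 DAF) and than 96.1% to 98.8% when oldest (55 DAF), over the 4 libraries of each stage. For the chromosome 1 copy the shares were 57.8% to 62.6% (18 DAF) and 96.5% to 98.6% (55 DAF). These shares include genes at 0, which made up 17.7% to 19.4% of genes at 18 DAF and 30.1% to 32.8% at 55 DAF. Among the 40721 genes that passed the filter on low counts, counts scaled between libraries but not by gene length were compared. On that measure the shares over both copies were 33.0% to 43.1% at 18 DAF and 92.4% to 98.2% at 55 DAF. The pair thus moved from the middle of the range, or below it, to its upper end in both lines.

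The stage changes were tested on the counts with the edgeR quasi-likelihood test, with TMM scaling and Benjamini-Hochberg adjustment over the 40721 genes that passed the filter on low counts. Both copies passed that filter, and the threshold was an adjusted p of 0.05. The log2 fold changes below are on the TMM scale, later minus earlier stage, with their SE.

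The largest step of both copies in cgy-2-NIL was the last. From 50 to 55 DAF both copies rose in cgy-2-NIL, where 28.4% of genes tested rose, and both rose in DN47, where 22.7% of genes rose. The chromosome 11 copy rose by 2.98 (SE 0.17, edgeR adjusted p = 4.30e-10) in cgy-2-NIL and by 1.39 (SE 0.17, adjusted p = 5.65e-06) in DN47. The chromosome 1 copy rose by 2.75 (SE 0.25, adjusted p = 1.71e-07) in cgy-2-NIL and by 1.97 (SE 0.25, adjusted p = 1.77e-05) in DN47. As ratios of mean RPKM, the level at 55 DAF over that at 50 DAF was 8.03 in cgy-2-NIL and 3.13 in DN47 for the chromosome 11 copy. For the chromosome 1 copy it was 6.83 in cgy-2-NIL and 4.72 in DN47.

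From 35 to 50 DAF both copies also rose in both lines, where 25.8% of genes rose in cgy-2-NIL and 16.2% in DN47. The chromosome 11 copy rose by 2.30 (SE 0.19, edgeR adjusted p = 5.87e-08) in cgy-2-NIL and by 2.05 (SE 0.19, adjusted p = 5.90e-07) in DN47. At this step the chromosome 1 copy rose by 1.89 (SE 0.26, adjusted p = 2.74e-05) in cgy-2-NIL and by 1.27 (SE 0.27, adjusted p = 0.00220) in DN47.

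The earlier steps were small and depended on the scale. From 25 to 35 DAF the chromosome 11 copy rose by 0.60 (SE 0.20, edgeR adjusted p = 0.0227) in cgy-2-NIL. In DN47 it rose by 0.88 (SE 0.21, edgeR adjusted p = 0.00353). The chromosome 1 copy, at 0.48 (SE 0.27) in cgy-2-NIL and 0.73 (SE 0.29) in DN47, passed the test in neither line. Its SE was larger, and whether the copies differed in these changes was not tested. All groups shared 1 estimate of the spread, and the widest replicate gap of this copy, 2.25 times, was in cgy-2-NIL at 50 DAF. Without replicate 1 or without replicate 2 of that group the changes stayed at 0.48 and 0.73, with a smaller SE. The missed calls thus do not show that the chromosome 1 copy was unchanged from 25 to 35 DAF. The share of genes that rose at this step was 20.2% in cgy-2-NIL and 17% in DN47. From 18 to 25 DAF the chromosome 11 copy rose in DN47, by 0.59 (adjusted p = 0.0417), where 16.3% of genes rose, and neither copy passed the test in cgy-2-NIL, where 20.2% of genes rose. Leaving out 1 library lost the call from 18 to 25 DAF in 12 of 20 fits (adjusted p between 0.0131 and 0.142 over all fits), those without either cgy-2-NIL library of 18 or 35 DAF or either DN47 library of 18, 25, 35 or 50 DAF. The call from 25 to 35 DAF in cgy-2-NIL was lost in 3 fits, those without replicate 2 of 25 DAF or either replicate of 35 DAF of that line (adjusted p up to 0.181).

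Without TMM factors, on the library totals that RPKM uses, none of these early changes passed the test. From 25 to 35 DAF the chromosome 11 copy then changed by 0.02 in cgy-2-NIL (adjusted p = 0.957) and 0.22 in DN47 (adjusted p = 0.419), while the median of all genes was -0.58 and -0.63 in the same lines. In cgy-2-NIL the chromosome 1 copy then changed sign, at -0.10. The late rises passed the test on both scales.

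The comparison of the lines asks whether the pair differed between α-null seeds and seeds of the parent. At 55 DAF both copies were higher in cgy-2-NIL. The chromosome 11 copy had a log2 fold change of 1.61 (SE 0.16, 95% interval 1.27 to 1.95, edgeR adjusted p = 6.88e-07) and the chromosome 1 copy 1.43 (SE 0.23, 95% interval 0.93 to 1.93, adjusted p = 0.000145). The ratios of mean RPKM, cgy-2-NIL over DN47, were 2.72 and 2.40. Of all genes tested, 46.1% differed between the lines at this stage, 21.8% being higher in cgy-2-NIL, and the fold changes of the copies exceeded those of 94.0% and 92.8% of genes. Leaving out any 1 library kept both calls, with fold changes between 1.39 and 1.86 for the chromosome 11 copy and between 1.23 and 1.65 for the chromosome 1 copy.

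**Figure D2:**
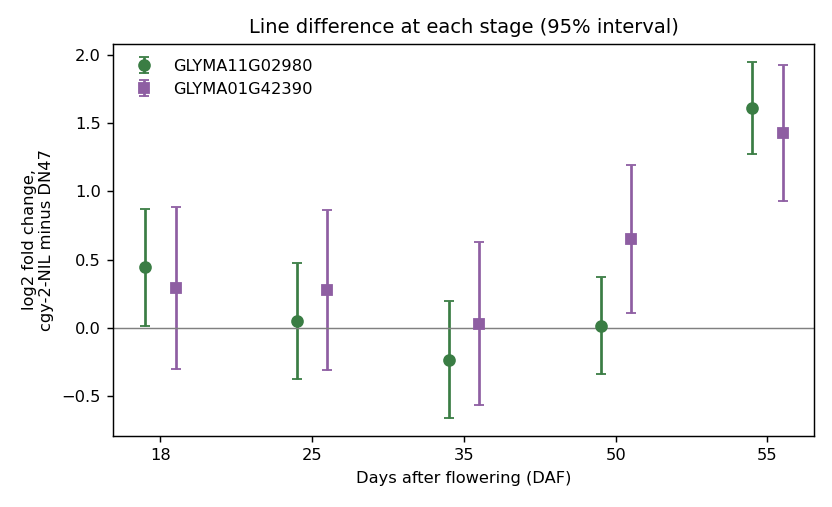
Log2 fold change of cgy-2-NIL minus DN47 (y axis, TMM scale) at each stage (x axis, days after flowering) for both copies, with 95% intervals from the edgeR fit. The points at 55 DAF are 1.61 and 1.43, and both intervals lie above those of the same copy at 25 and 35 DAF.

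At the other stages neither copy passed the test. The share of all genes called was 1.19%, 8.07%, 14.7% and 16.4% at these 4 stages, in order of age. The chromosome 11 copy had log2 fold changes of 0.44 (95% interval 0.01 to 0.87, adjusted p = 0.468), 0.05 (-0.38 to 0.47), -0.23 (-0.66 to 0.20) and 0.02 (-0.34 to 0.38) in stage order. The chromosome 1 copy had 0.29 (-0.30 to 0.88), 0.28 (-0.31 to 0.87) and 0.03 (-0.57 to 0.63) at the first 3 stages, and 0.65 (0.11 to 1.19, edgeR adjusted p = 0.0934) at 50 DAF. The interval at 50 DAF rests on a spread shared by all groups, with an SE of 0.25. Fitted on the 4 libraries of that stage alone, the log2 fold change was 0.63 with an SE of 0.36.

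The value of the chromosome 1 copy at 50 DAF rested on the cgy-2-NIL libraries, whose counts were 242 and 687, against 212 and 212 in DN47. Without replicate 2 of cgy-2-NIL the log2 fold change was -0.02, and without replicate 1 it was 1.10 (edgeR adjusted p = 8.13e-05). The larger of the 2 cgy-2-NIL values was 2.25 times the smaller for the chromosome 1 copy and 1.56 times for the chromosome 11 copy, the widest replicate gaps of either copy in any group.

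Whether the line difference itself changed with the stage was tested next. The joint interaction test gave an edgeR adjusted p of 0.000120 for the chromosome 11 copy and 0.0274 for the chromosome 1 copy, and 44.5% of genes passed it. The call of the chromosome 1 copy was lost in 9 of 20 fits that left out 1 library, with adjusted p between 4.02e-05 and 0.135 over all fits, and on library totals without scaling factors (adjusted p = 0.105). The 9 fits were those without either replicate of cgy-2-NIL at 35 or 55 DAF or of DN47 at 35 DAF, replicate 2 of cgy-2-NIL at 25 DAF, or replicate 1 of DN47 at 25 or 55 DAF. Without the 55 DAF libraries neither copy passed, with adjusted p of 0.265 for the chromosome 11 copy and 0.597 for the chromosome 1 copy.

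By step, the rise from 50 to 55 DAF was larger in cgy-2-NIL for the chromosome 11 copy, by 1.59 (SE 0.23, edgeR adjusted p = 0.000131), where 25.6% of genes differed. For the chromosome 1 copy the difference was 0.78 (95% interval 0.05 to 1.51, adjusted p = 0.113). This last-step difference passed the test without replicate 2 of cgy-2-NIL at 50 DAF, at 1.45 (adjusted p = 7.15e-05), and over the fits without 1 library it lay between 0.32 and 1.45. At the 3 earlier steps neither copy passed this test, where 3.58%, 1.39% and 8.26% of genes did, in order of age. From 35 to 50 DAF the chromosome 1 copy, at 0.62 (adjusted p = 0.344), passed without replicate 1 of cgy-2-NIL at 50 DAF, at 1.07 (adjusted p = 0.00364), and without replicate 2 it was -0.06. Averaged over the stages, the chromosome 1 copy was higher in cgy-2-NIL by 0.56 (SE 0.16, adjusted p = 0.0300) and the chromosome 11 copy had 0.40 (SE 0.18, adjusted p = 0.140), where 13.5% of genes were called. The call of the chromosome 1 copy was lost without the 55 DAF libraries, at 0.32 (adjusted p = 0.146), and in 4 of the 20 fits without 1 library, with adjusted p up to 0.0709. These were the fits without replicate 2 of cgy-2-NIL or of DN47 at 50 DAF, or without either DN47 library of 55 DAF.

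**Figure D3:**
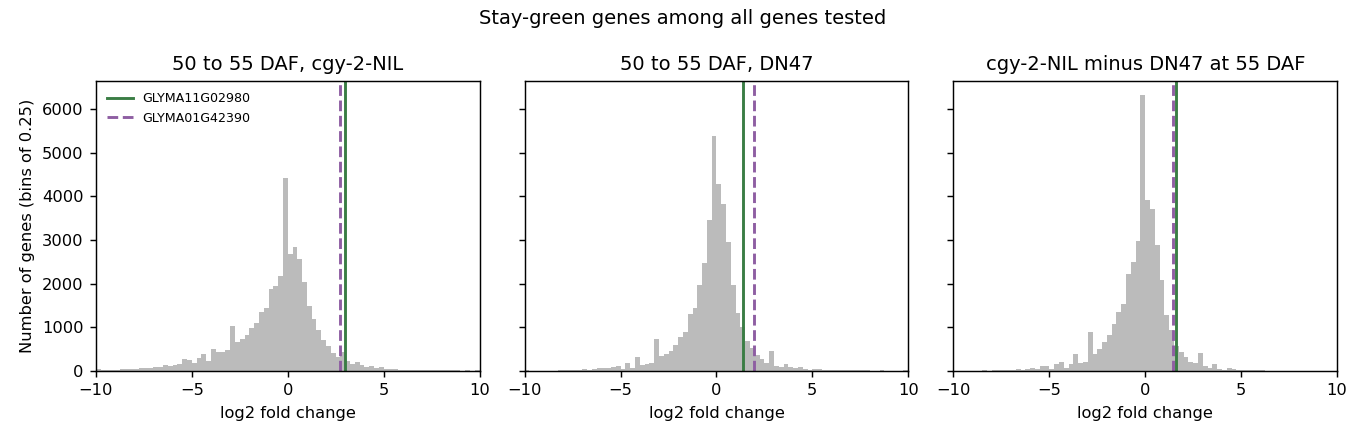
Number of genes (y axis) by log2 fold change (x axis, bins of 0.25) from 50 to 55 DAF in cgy-2-NIL (left), in DN47 (middle), and between cgy-2-NIL and DN47 at 55 DAF (right), with values beyond 10 placed in the end bins. Lines mark the chromosome 11 copy at 2.98, 1.39 and 1.61 and the chromosome 1 copy at 2.75, 1.97 and 1.43, on the upper side of each distribution.

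The balance within the pair was described by the log2 ratio of the chromosome 11 copy to the chromosome 1 copy in RPKM. The chromosome 1 copy was higher in all 12 libraries at 18, 25 and 35 DAF, and the chromosome 11 copy was higher in 4 of the 8 libraries at 50 and 55 DAF. These 4 were both DN47 libraries at 50 DAF and replicate 1 of cgy-2-NIL at 50 and at 55 DAF. The group means in cgy-2-NIL were -0.47, -0.70, -0.58, -0.09 and 0.06 from 18 to 55 DAF. In DN47 they were -0.62, -0.47, -0.31, 0.47 and -0.12, so the ratio was highest at 50 DAF there.

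An exact test of whether libraries of a stage were closer to each other than other pairings of the same line's libraries was added after the ratios were seen. In DN47 it gave p = 0.00106, the smallest p that its 945 pairings can give (Benjamini-Hochberg 0.00212 over the lines), and in cgy-2-NIL the exact p was 0.0783. Whether the lines differ in this was not tested. Between the lines the ratio differed by -0.14 on average over the stages, cgy-2-NIL minus DN47, with a two-sided exact permutation p = 0.157 over 7776 arrangements. Without the 55 DAF libraries the difference was -0.23 (exact permutation p = 0.0432).

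**Figure D4:**
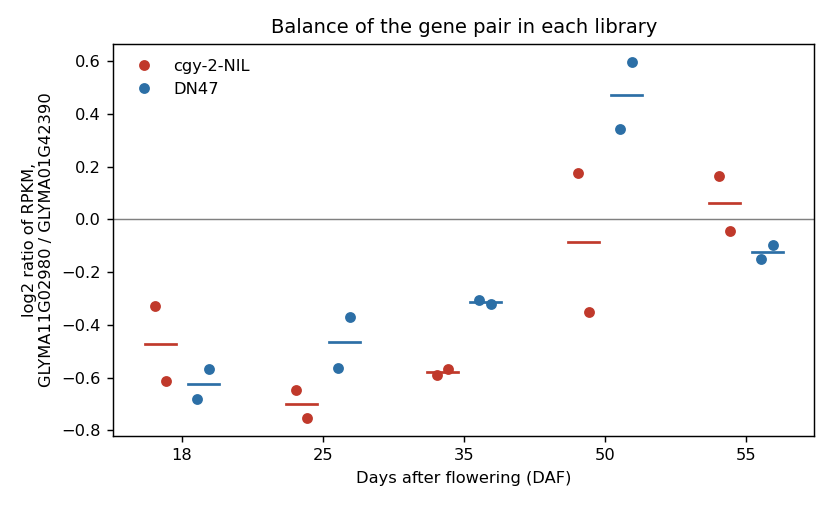
Log2 ratio of RPKM, chromosome 11 copy over chromosome 1 copy (y axis), in each library against days after flowering (x axis), with cgy-2-NIL in red, DN47 in blue and bars for the mean of 2 libraries. All points up to 35 DAF lie below 0, and both DN47 points at 50 DAF lie above it.

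Other features of the seeds were set beside the pair. On the first principal component the 55 DAF libraries scored 236.6 and 241.5 in cgy-2-NIL and 172.0 and 180.6 in DN47. At that stage the cgy-2-NIL seeds thus stood farther along the axis that orders the stages. At 18 DAF the lines overlapped. At 25 DAF the cgy-2-NIL seeds stood behind, at -118.7 and -123.5 against -104.0 and -111.8 in DN47. At 35 DAF the scores were -46.4 and -32.7 in cgy-2-NIL and -32.6 and -31.2 in DN47. At 50 DAF the scores were 85.2 and 129.6 in cgy-2-NIL and 80.7 and 70.7 in DN47, and the cgy-2-NIL library with 129.6 was also the one with the higher level of both stay-green copies. The part of this position in the line difference was not tested.

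**Figure D5:**
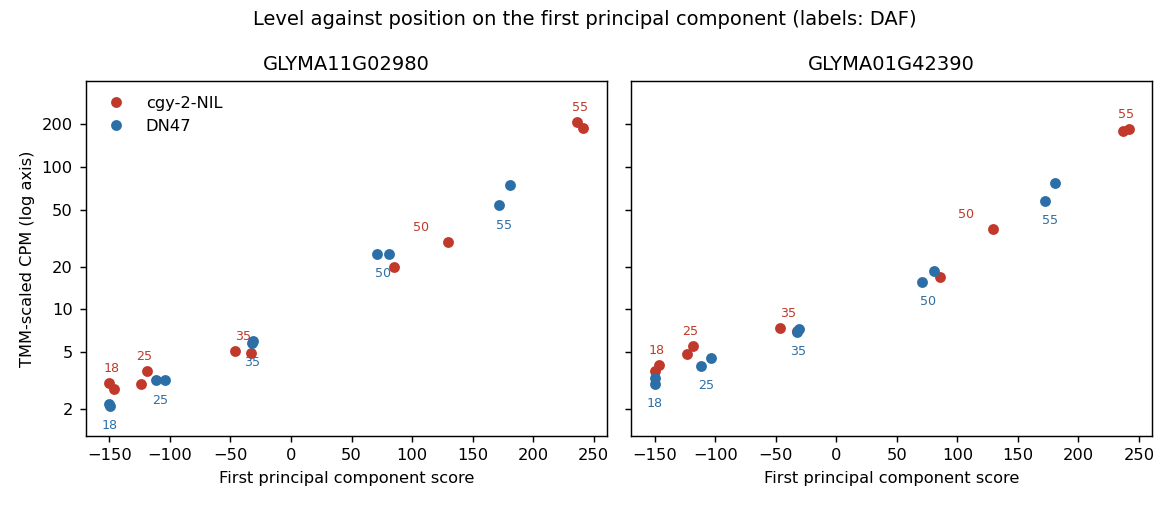
TMM-scaled CPM, counts scaled by library size (log y axis), of each copy against the score of its library on the first principal component (x axis), with cgy-2-NIL in red, DN47 in blue and the days after flowering beside the points. The cgy-2-NIL libraries at 55 DAF are at the upper right, at scores of 236.6 and 241.5, beyond the DN47 libraries at 172.0 and 180.6.

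Most of the 18 genes that the study lists as cupins fell from 50 to 55 DAF in both lines, where the stay-green pair rose. Of the list, 8 belong to the 7S and 8 to the 11S seed storage globulins, which fill the seed, and 2 (GLYMA16G00980 and GLYMA10G39161) are given neither family. The list includes the α-subunit gene GLYMA20G28660. It was chosen by the study on these samples and is not independent evidence of a direction, and all 18 genes were tested. The share of these genes in all counts at 55 DAF was 1.77% and 1.38% in cgy-2-NIL, against 9.002% and 8.04% in DN47. At 50 DAF it was 30.1% and 20.2% in cgy-2-NIL, against 29.8% and 24.6% in DN47.

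From 50 to 55 DAF 15 of the 18 fell and 1 rose in cgy-2-NIL, where 33.8% of all genes fell, with a median log2 fold change of -3.57 against -0.08 for all genes. In DN47 12 fell and 1 rose, where 24.8% of all genes fell, with a median of -1.64 against 0 for all genes. The gene that rose was GLYMA19G34770 of the 11S family in both lines, named after its values were seen. Between the lines at 55 DAF, 13 of the 18 were lower in cgy-2-NIL and 0 were higher, where 24.4% of all genes were lower, with a median of -2.15 against -0.02 for all genes. The list did not move with the pair at each stage. At 25 DAF 9 were lower in cgy-2-NIL and 0 were higher, with a median of -1.69, where 2.85% of all genes were lower and neither stay-green copy passed the test (0.05 and 0.28). Neither direction had more than 3 calls at 18, 35 or 50 DAF. The part of the fall of these genes in the stay-green result was not tested.

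The genes whose pattern was most like each copy were ranked by Pearson's r of log2(TMM-scaled CPM + 1) over the 20 libraries, which share the stage course. This is a description, and 3651 genes had r over 0.9 with the chromosome 11 copy and 3895 with the chromosome 1 copy. The chromosome 11 copy was most like GLYMA15G13220 and GLYMA11G08975, both with r = 0.994. The chromosome 1 copy was most like GLYMA05G06080 (r = 0.997) and GLYMA17G10950 (r = 0.995). The other stay-green copy had r = 0.991 and ranked 14 of 40720 genes for the chromosome 11 copy and 20 for the chromosome 1 copy. By Spearman's rho these ranks were 181 and 268.

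Of these genes, GLYMA17G10950 was lowest at 18 DAF, at 0.300 ± 0.000742 RPKM at 18 DAF and 77.7 ± 7.57 RPKM at 55 DAF in cgy-2-NIL, and at 0.224 ± 0.0579 and 27.5 ± 7.39 RPKM in DN47 (SD, n = 2 each). In cgy-2-NIL GLYMA05G06080 had 31.6 RPKM at 18 DAF and 173 ± 7.39 RPKM at 55 DAF. In DN47 it had 32.1 and 92.9 ± 3.04 RPKM. GLYMA15G13220 had 40.4, 29.5 and 97.9 RPKM at 18, 35 and 55 DAF in cgy-2-NIL, and 38.4, 30.4 and 71.7 in DN47. In TMM-scaled CPM, used for r, its DN47 libraries had 32.4 and 35.3 at 18 DAF and 46.8 and 50.6 at 35 DAF. GLYMA11G08975 had 2.33 RPKM at 18 DAF and 11.5 RPKM at 55 DAF in DN47. A high r thus did not fix the level at 18 DAF or the steepness of the rise. At 18 DAF GLYMA15G13220 and GLYMA05G06080 were higher than the copies, and GLYMA17G10950 was lower. The sources used here give none of these 4 genes a name.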

How the data were processed

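Seed RNA of 20 libraries was sequenced on an Illumina platform. The authors counted reads per gene of the Ensembl Plants annotation with HTSeq and deposited raw counts. The aligner and strand setting are not given in the sources used here. The deposited RPKM values divide each count by 1 length per gene (1444 bp for GLYMA11G02980 and 1391 bp for GLYMA01G42390) and by the library total, without scaling between libraries.

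Counts were filtered with filterByExpr, which kept 40721 of 57274 genes, scaled by TMM and fitted in edgeR 4.0.16 (R 4.3.3) with robust quasi-likelihood dispersions and 10 group means, leaving 10 residual degrees of freedom. Contrasts were cgy-2-NIL minus DN47 and later minus earlier stage, with Benjamini-Hochberg adjustment over all genes tested and a threshold of 0.05. SE was derived from the F statistic. All groups shared 1 estimate of the spread. The DESeq test of the study was not run. The ratio of the pair was tested by exact permutation of line labels within stages. The fit was also run on simulated counts, which gave each gene the same spread in all groups. That run does not test the effect of unequal spread between groups, and no result above rests on it.

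Alternatives were DESeq2 1.42.0, limma-voom (limma 3.58.1), other scaling factors and filters, a replicate block, and fits without libraries or stages. Library totals without scaling factors and the stage test of the ratio were added after the data were seen. The members and lists were chosen with earlier results of these data known. The named genes are the pair, the 2 genes most like each copy, GLYMA20G28660, and further genes of the cupin list. These are GLYMA16G00980, GLYMA10G39161 and GLYMA19G34770, the last named after its values were seen. Lists of chlorophyll breakdown, light harvesting and chlorophyll synthesis genes could not be formed, since 0 RefSeq genes carry an identifier of the tables. Figures were drawn with matplotlib 3.10.9.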

Additional observations from a re-analysis of the deposited data

Results flagged for a closer look

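The joint test of whether the line difference changed with the stage gave an edgeR adjusted p of 0.000120 for GLYMA11G02980 and 0.0274 for GLYMA01G42390. Of all genes tested, 44.5% passed it. The call of GLYMA11G02980 was lost without the 55 DAF libraries (0.265). That of GLYMA01G42390 was lost with limma-voom (0.0502), with library totals (0.105), without 55 DAF (0.597) and in 9 of 20 fits without 1 library. The rise of GLYMA11G02980 from 50 to 55 DAF differed between the lines, being larger in cgy-2-NIL (edgeR adjusted p = 0.000131). In this comparison 25.6% of all genes differed.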

How the results depend on the processing

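The higher level of both copies in cgy-2-NIL at 55 DAF, and the rises of both copies from 35 to 50 and from 50 to 55 DAF in both lines, kept their direction and call under all alternatives run. At 55 DAF the alternatives other than leaving out a library gave 1.44 to 1.69 for GLYMA11G02980 and 1.26 to 1.51 for GLYMA01G42390.

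The line difference of GLYMA11G02980 at 50 DAF, 0.02, changed sign with DESeq2 size factors (-0.0217), upper-quartile factors (-0.0312), at least 10 counts in every library (-0.0214), DESeq2 (-0.0230) and limma-voom (-0.00110). The line difference of GLYMA01G42390 in the change from 18 to 25 DAF, -0.01, changed sign with DESeq2 size factors (0.00157), no filter (0.00226), at least 10 counts (0.0140), DESeq2 (0.00229) and library totals (0.0457). None of these values passed the test. The change of GLYMA11G02980 from 18 to 25 DAF in DN47 lost its call with at least 10 counts (0.54), DESeq2 (0.55), limma-voom (0.59) and library totals (0.39). Its change from 25 to 35 DAF lost the call in cgy-2-NIL with limma-voom (0.62) and library totals (0.0174), and in DN47 with library totals (0.22). The change of GLYMA01G42390 from 25 to 35 DAF in cgy-2-NIL reversed with library totals (-0.10). The line difference in its rise from 50 to 55 DAF passed with DESeq2 (0.91, adjusted p = 0.0455). Its interaction was lost with limma-voom (adjusted p = 0.0502), library totals (0.105) and without 55 DAF (0.597), as was that of GLYMA11G02980 without 55 DAF (0.265). Its difference across stages without 55 DAF was 0.32, and the line difference of the log2 ratio was then -0.23. The cause of these changes was not tested.

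Over the 20 fits without 1 library, the line difference of GLYMA11G02980 ran from -0.11 to 0.20 at 25 DAF and from -0.32 to 0.28 at 50 DAF, and that of GLYMA01G42390 from -0.0249 to 1.10 at 50 DAF. The change of GLYMA11G02980 ran from 0.57 to 0.60 from 18 to 25 DAF in DN47 (lost in 12 fits) and from 0.45 to 0.75 from 25 to 35 DAF in cgy-2-NIL (lost in 3). The change of GLYMA01G42390 from 18 to 25 DAF ran from 0.32 to 0.52 in cgy-2-NIL and from 0.34 to 0.52 in DN47. From 25 to 35 DAF it ran from 0.38 to 0.58 in cgy-2-NIL and from 0.64 to 0.82 in DN47. These 4 changes passed only in the 2 fits without a cgy-2-NIL library of 50 DAF. The line difference in the change of GLYMA01G42390 ran from -0.11 to 0.0885 (18 to 25 DAF), from -0.0572 to 1.07 (35 to 50 DAF) and from 0.32 to 1.45 (50 to 55 DAF). That of GLYMA11G02980 from 35 to 50 DAF ran from -0.0844 to 0.51. The interaction p of GLYMA01G42390 ran from 4.02e-05 to 0.135, and its difference across stages from 0.45 to 0.62.

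Replicate numbers did not pair the libraries, with correlations of deviations between -0.17 and 0.18. With the replicate number as a block the 55 DAF line differences were 1.62 and 1.44, and no call of either copy changed. Upper-quartile factors moved the median of all genes to -0.13 for the line difference at 55 DAF and to -0.25 in cgy-2-NIL from 50 to 55 DAF.

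The number of genes called at 18 DAF, 483, was 965 with DESeq2, 1020 with limma-voom, 311 with library totals, 4739 with the 4 libraries of the stage alone and 69 to 799 without 1 library. At 25 DAF 3286 became 4936 with limma-voom and 216 to 4811 without 1 library. At 35 DAF 5985 became 1820 to 7792 without 1 library. At 50 DAF 6695 became 73 with the stage's libraries alone and 2429 to 9841 without 1 library. Without 55 DAF the interaction called 6634 genes, not 18141, and the test across stages 3140, not 5517, which was 3331 to 5808 without 1 library. For the line difference in the change, 1456 genes (18 to 25 DAF) became 2474 with limma-voom and 390 to 2270 without 1 library, 564 (25 to 35 DAF) became 1306 with DESeq2, 246 with library totals and 65 to 1362 without 1 library, and 3362 (35 to 50 DAF) became 2026 with library totals and 1369 to 6465 without 1 library.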
